A study of Homo sapiens with 12 samples.

Results

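The 10 genes described here are the AP-1 genes FOS, FOSB, FOSL1, FOSL2, JUN, JUNB, JUND and ATF3 and the immediate early genes EGR1 and IER2, taken by their symbols from a count table of 23368 genes. The group was chosen by a measured value, the lower FOSB level with the collagen mimic in T47D cells, so the T47D values of these 10 genes between the mimics are given below as a description with no test. Human breast cancer cells of 2 established lines were grown for 3 days in synthetic matrices that carried either the collagen mimic GFOGER or the laminin mimic IKVAV. MDA-MB-231 is an estrogen receptor negative (ER−) line with mesenchymal features, and T47D is an estrogen receptor positive (ER+) luminal line. Counts were available for 11 libraries, 3 of MDA-MB-231 with GFOGER, 2 of MDA-MB-231 with IKVAV, 3 of T47D with GFOGER and 3 of T47D with IKVAV. Another MDA-MB-231 IKVAV sample, which the authors had removed, was not analysed here. Each RNA replicate pooled 3 gels of one composition, and every gel was first degraded with collagenase for 20 minutes at 37 °C. The paper calls its qRT-PCR replicates biological. Nothing in the sources says so of the sequenced replicates, or that they came from separate cultures. The p-values therefore measure only the spread between these samples, which may be technical.

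AP-1 is a dimer of basic leucine zipper (bZIP) proteins. Fos proteins bind DNA only as partners of Jun proteins, whereas Jun proteins can also pair with each other or with ATF3. Most of these genes are immediate early genes, which growth factors, adhesion, stress and cell handling switch on through MAP kinases without new protein synthesis, and several of their products, FOSL1 in particular, are known for high levels in invasive, mesenchymal-like breast cancer cells.

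The promoters of FOS, FOSB, JUNB and EGR1 are shown because these genes are among those described below as lower with GFOGER or far apart between the cell lines, and because their start-proximal sequence carries the elements for which such genes are known. RefSeq promoter sequence (GRCh38.p14) was found for 9 of the 10 genes, all but FOSL1. Bases are counted upstream of the annotated start, every stretch lies on the plus strand, and capitals mark TGACG and TATAAA in the first 3 and the CArG boxes bound by serum response factor in EGR1.
FOS, chr14:75278748-75278807, 80 to 21 bases upstream: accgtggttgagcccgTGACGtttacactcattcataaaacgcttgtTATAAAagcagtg
FOSB, chr19:45467916-45467975, 80 to 21 bases upstream: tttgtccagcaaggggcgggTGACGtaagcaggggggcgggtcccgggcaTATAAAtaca
JUNB, chr19:12791346-12791465, 140 to 21 bases upstream: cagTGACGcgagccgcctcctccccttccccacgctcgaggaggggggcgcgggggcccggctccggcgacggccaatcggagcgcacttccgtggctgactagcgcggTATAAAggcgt
EGR1, chr5:138465364-138465423, 115 to 56 bases upstream: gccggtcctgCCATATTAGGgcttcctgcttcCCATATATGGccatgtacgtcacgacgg

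Within 250 bases upstream, TGACG on either strand, the core of the cyclic AMP response element, stood in 8 of the 9 promoters, all but that of ATF3, and in 21.2% of 35116 promoters. TATAAA on the gene's strand stood in those of FOS, FOSB, JUNB and ATF3 and in 6.8% of all promoters. A CArG box stood in that of EGR1 and in 1.16% of all promoters. The full element TGACGTCA, which contains TGACG, stood in JUND and in 1.65% of all promoters, and the AP-1 site TGANTCA stood in 0 of the 9 and in 6.57% of all promoters. These are matches of letters, not measured binding.

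The libraries held between 14338238 and 18452145 reads on genes, and levels are given as counts per 1000000 reads (cpm) after TMM normalization over all 11 libraries. The line markers matched the labels. VIM, a mesenchymal filament gene, lay between 1430 and 2420 cpm in MDA-MB-231 and between 3.72 and 5.29 cpm in T47D, whereas ESR1, the estrogen receptor gene, lay between 0.518 and 0.797 cpm in MDA-MB-231 and between 257 and 317 cpm in T47D. In bulk RNA a lower level can mean fewer cells that express a gene or less RNA in each cell, and these cannot be told apart.

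Every member was detected in all 11 libraries, and all 10 passed the filter on low counts in each fit. Over the 9 members other than FOSB the median absolute log2 difference between the cell lines was 1.89 in GFOGER and 1.86 in IKVAV, and between the mimics it was 0.262 in MDA-MB-231. For all genes tested these medians were 0.93, 0.916 and 0.337. FOSL1 and EGR1 had the highest levels per length of the 10 genes in MDA-MB-231 and the lowest in T47D, where FOSL1 had 6 to 20 reads a library and EGR1 35 to 64. JUND differed least between the lines.

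**Figure D1:**
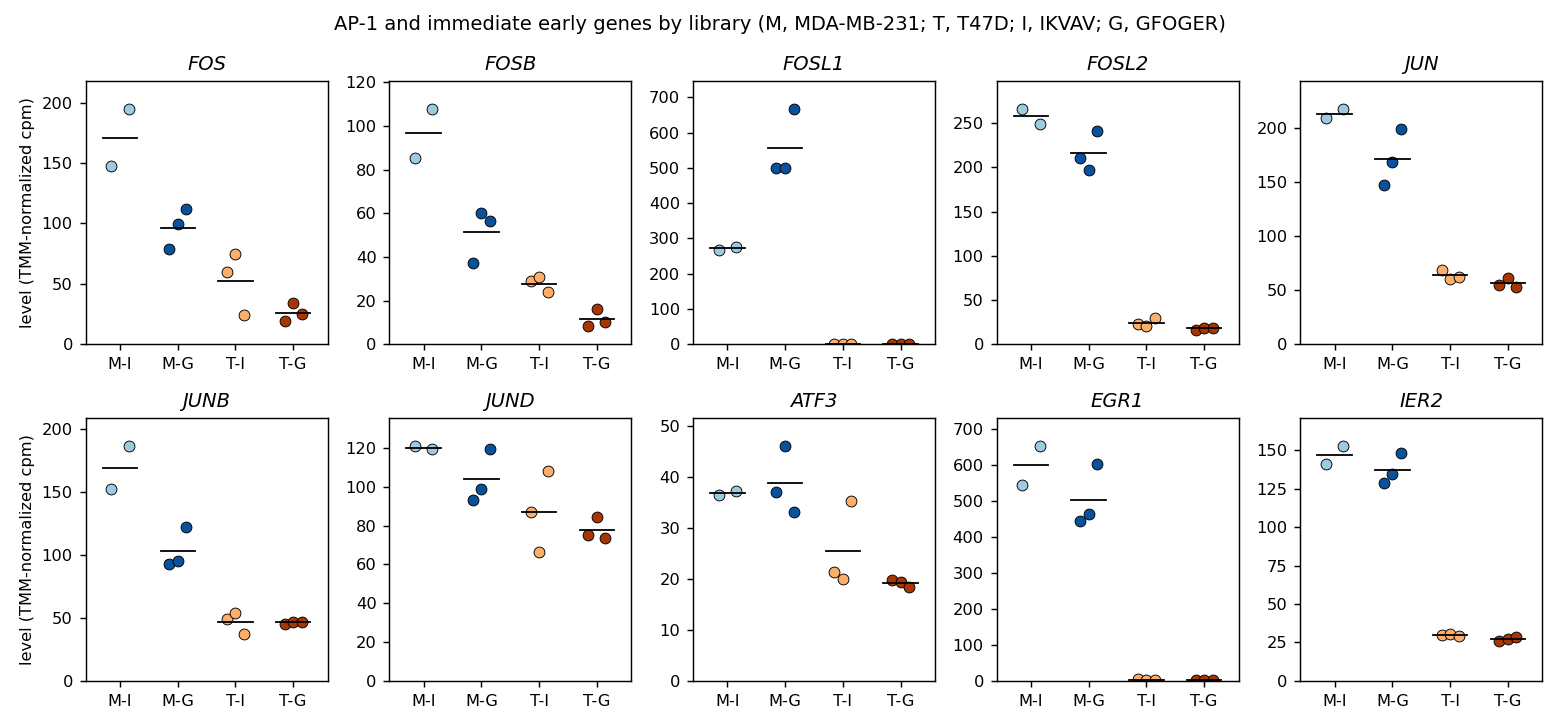
Level of each of the 10 genes (vertical axis, TMM-normalized cpm, from 0) in each library, by condition (M for MDA-MB-231, T for T47D, I for IKVAV, G for GFOGER), with the mean as a bar. In MDA-MB-231 the GFOGER points of FOS, FOSB and JUNB lie below the IKVAV points and those of FOSL1 above, and FOSL1 and EGR1 lie near 0 in T47D.

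The comparison of GFOGER with IKVAV within MDA-MB-231 asks which of these genes follow the matrix ligand in the invasive line. With GFOGER, FOSL1 rose while FOS, FOSB, JUNB, JUN and FOSL2 fell, and the other 4 members did not pass the test (adjusted p below 0.05 by the quasi-likelihood test of edgeR, Benjamini-Hochberg adjusted over 14092 genes). Thus 5 of 10 members fell and 1 of 10 rose, where 21.4% of all genes tested fell and 21.4% rose. The count of falls depended on single libraries. Leaving some of them out removed the calls of JUN and FOSL2 or added JUND, EGR1 and IER2, as given below. The members' median log2 fold change was −0.26, and that of all genes was 0.00386. FOSL1 alone passed the 2-fold threshold as well, as did 9.57% of all genes tested.

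FOSL1 encodes FRA-1, a Fos protein that lacks a strong transactivation domain and accumulates under sustained ERK signalling (hg19 chromosome 11, 65659692 to 65667997). Its level was 498, 500 and 666 cpm in the 3 GFOGER libraries and 268 and 275 cpm in the 2 IKVAV libraries. The groups did not overlap, and GFOGER replicate 3 stood above the other GFOGER libraries. FOSL1 was thus 2.03-fold higher with GFOGER (log2 fold change 1.02, SE 0.112, adjusted p = 2.31e-06). Since this is at the edge of the 2-fold threshold, it fell short of it without GFOGER replicate 3 (0.88, adjusted p = 1.07e-32) and with upper-quartile normalization (0.99), while the adjusted p stayed below 0.05. The p-value without that replicate rests on fewer libraries with less spread, so its size is not read as stronger evidence.

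FOS, the prototype of the family (chromosome 14, 75745481 to 75748937), had 78.5, 99.2 and 112 cpm with GFOGER and 147 and 195 cpm with IKVAV. All GFOGER libraries were below both IKVAV libraries, and the fall was 1.78-fold (log2 fold change −0.84, SE 0.134, adjusted p = 0.000117). FOSB, its closest relative (chromosome 19, 45971253 to 45978437), had 37.2, 60 and 56.4 cpm with GFOGER and 85.5 and 108 cpm with IKVAV. Its fall was 1.9-fold, again without overlap (log2 fold change −0.92, SE 0.159, adjusted p = 0.000218). For both genes IKVAV replicate 2 was the highest library and GFOGER replicate 1 the lowest.

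FOSL2, which encodes FRA-2 (chromosome 2, 28615779 to 28637516), had 210, 197 and 241 cpm with GFOGER and 266 and 249 cpm with IKVAV. Its fall was small (log2 fold change −0.26, SE 0.0948, adjusted p = 0.0347). The adjusted p rose to 0.117 without GFOGER replicate 1, to 0.151 without GFOGER replicate 2, to 0.276 without IKVAV replicate 1 and to 0.129 without IKVAV replicate 2. The call for FOSL2 therefore held only with all of those 4 libraries.

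Among the Jun genes the fall was largest for JUNB, which encodes a weaker activator than JUN that can antagonise it (chromosome 19, 12902310 to 12904125). JUNB had 93.3, 95.1 and 122 cpm with GFOGER and 152 and 187 cpm with IKVAV. The groups did not overlap, and the fall was 1.65-fold (log2 fold change −0.72, SE 0.12, adjusted p = 0.000163). JUN itself, the strong activator of the family (chromosome 1, 59246463 to 59249785), had 147, 168 and 200 cpm with GFOGER and 209 and 217 cpm with IKVAV. JUN fell by 0.32 on the log2 scale (SE 0.109, adjusted p = 0.0245), and its adjusted p was 0.159 without GFOGER replicate 1, 0.109 without IKVAV replicate 1 and 0.193 without IKVAV replicate 2. JUND, whose product is present in resting cells (chromosome 19, 18390563 to 18392432), had 93.2, 98.7 and 120 cpm with GFOGER and 121 and 119 cpm with IKVAV, which overlapped (log2 fold change −0.22, SE 0.108, adjusted p = 0.112).

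EGR1, a zinc finger factor induced through serum response factor (chromosome 5, 137801181 to 137805004), had 443, 464 and 602 cpm with GFOGER and 544 and 652 cpm with IKVAV. These overlapped, and the test was not passed (log2 fold change −0.26, SE 0.114, adjusted p = 0.0772). IER2, a small nuclear protein gene (chromosome 19, 13261282 to 13265718), had 129, 134 and 148 cpm with GFOGER and 141 and 153 cpm with IKVAV (log2 fold change −0.11, SE 0.096, adjusted p = 0.381). ATF3, a stress-induced bZIP factor that often represses (chromosome 1, 212738676 to 212794119), had 37.1, 46.1 and 33.2 cpm with GFOGER and 36.4 and 37.3 cpm with IKVAV (log2 fold change 0.067, SE 0.139, adjusted p = 0.732). Without GFOGER replicate 3 the adjusted p was 4.68e-06 for JUND, 1.43e-12 for EGR1 and 0.011 for IER2, so the absence of a call for these 3 genes turned on that library. That fit estimated the spread from fewer libraries, after the highest GFOGER library of these genes had been removed. The size of its p-values is therefore not read as evidence of a fall. EGR1 also passed with upper-quartile normalization (adjusted p = 0.0475) and without a filter on low counts (adjusted p = 0.0164). That replicate had the highest level of 8 of the 10 members in its group, and its part in these results was otherwise not tested.

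Some markers that tell MDA-MB-231 from T47D moved with the mimic beside FOSL1. All 5 of the line's markers, VIM, AXL, CAV1, CAV2 and MSN, rose with GFOGER in MDA-MB-231, with a median log2 fold change of 0.538, where 21.4% of all genes rose. Of the 8 T47D markers tested in MDA-MB-231, 0 rose, 1 fell and 7 did not pass, with a median log2 fold change of −0.192. Without GFOGER replicate 3, 4 of them fell. AXL, a receptor tyrosine kinase gene, rose from 450 to 1210 cpm (log2 fold change 1.42, SE 0.0948, adjusted p = 7.9e-09). Of the 8 markers of cells that the line should not hold 4 could be tested, 1 rose and 3 fell, where 21.4% of all genes fell. CD68 stood at 343 to 462 cpm with GFOGER and 246 to 256 cpm with IKVAV, and PDGFRB fell from 11.7 to 4.83 cpm (−1.29, SE 0.207, adjusted p = 0.000117). PTPRC, the leukocyte antigen gene, had at most 0.569 cpm, and CD3E was at 0 in all MDA-MB-231 libraries. The part of these markers in the members' values was not tested.

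**Figure D2:**
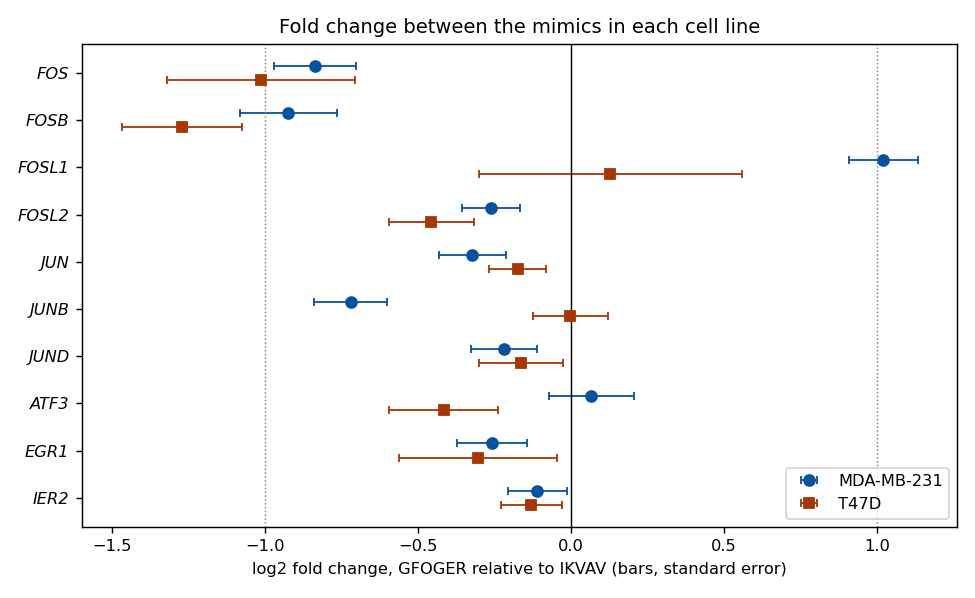
Log2 fold change of GFOGER relative to IKVAV (horizontal axis, bars are the standard error) for each of the 10 genes in each cell line. FOSL1 lies at 1.02 in MDA-MB-231 and FOS, FOSB and JUNB between −0.92 and −0.72, whereas in T47D FOSB lies at −1.27 and JUNB at −0.0016.

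Levels per kilobase of gene length put the members on a scale on which genes can be compared. With GFOGER the order in MDA-MB-231 ran from FOSL1 at 333 cpm per kilobase and EGR1 at 160 to ATF3 at 15.2 and FOSB at 13.6. Neighbours from IER2 (67) through JUNB, JUND, FOSL2 and JUN to FOS (44.7) overlapped between libraries, as did ATF3 and FOSB. With IKVAV EGR1 led at 191 cpm per kilobase, followed by FOSL1 at 163 and JUNB at 93.4, and ATF3 was lowest at 14.5. There JUNB with FOS and FOS with IER2 overlapped, as did FOSL2, JUND and JUN.

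The makeup of the Fos family therefore differed between the mimics in MDA-MB-231. FOSL1 made up 75.1%, 73 and 75.9% of the summed Fos transcripts per kilobase in the GFOGER libraries and 50.5 and 47.7% in the IKVAV libraries. The shares did not overlap, and the mean was 74.7% ± 1.51 (SD, n = 3) with GFOGER and 49.1% ± 2 (SD, n = 2) with IKVAV. FOS took up 10% ± 1.04 (SD, n = 3) and 23.7% ± 3.24 (SD, n = 2) respectively. The family total was 445 ± 70.8 cpm per kilobase (SD, n = 3) with GFOGER and 332 ± 19.8 (SD, n = 2) with IKVAV. Among the Jun genes JUNB was 34.7% of the total with GFOGER and 42% with IKVAV. These shares were not tested.

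**Figure D3:**
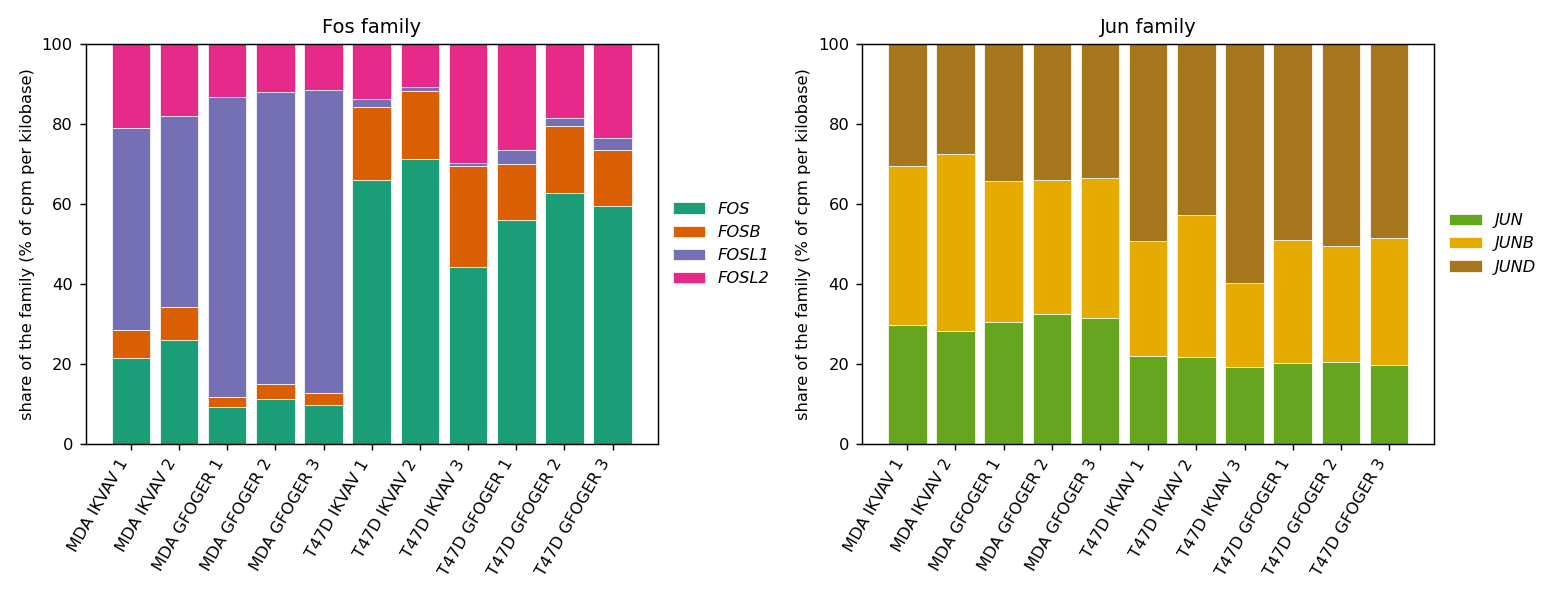
Share of each gene in the summed level of its family (vertical axis, percent of cpm per kilobase) in each of the 11 libraries, for the Fos and the Jun genes. FOSL1 fills 73 to 75.9% of the Fos family in MDA-MB-231 with GFOGER and at most 3.43% in T47D, where FOS has the largest share, 44.2 to 71.3%.

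In T47D cells the fall of FOSB chose the group, so the values that follow are a description. FOSB had 8.32, 16.1 and 10.1 cpm with GFOGER and 28.8, 30.9 and 23.7 cpm with IKVAV. Every GFOGER library was below every IKVAV library, and the means differed 2.41-fold (log2 fold change −1.27, SE 0.197). Leaving out single libraries moved the log2 fold change between −1.59 and −1.09. Of the 13642 genes tested in T47D 3, or 0.022%, passed both thresholds. This number rested on single libraries, as it was 94 without IKVAV replicate 3, 2 without IKVAV replicate 1, 1 without GFOGER replicate 2, and 0 without IKVAV replicate 2, GFOGER replicate 1 or GFOGER replicate 3.

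FOS had 19, 34.3 and 24.8 cpm with GFOGER and 59.6, 74.4 and 23.8 cpm with IKVAV. IKVAV replicates 1 and 2 were high, and IKVAV replicate 3 lay among the GFOGER libraries, so the groups overlapped although the mean log2 fold change was −1.01 (SE 0.308). Without IKVAV replicate 3 it was −1.37, and without IKVAV replicate 2 it was −0.68.

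FOSL2 was lower with GFOGER, at 16.6, 18.9 and 18 cpm against 23.1, 20.6 and 29.6 cpm with IKVAV. ATF3 was 19.7, 19.3 and 18.4 cpm with GFOGER and 21.4, 20.1 and 35.2 cpm with IKVAV, and IER2 was 25.7, 27.4 and 28.7 cpm and 29.6, 30.7 and 29.2 cpm. None of these 3 genes overlapped between the mimics, but the ATF3 difference came mostly from IKVAV replicate 3, since its log2 fold change of −0.42 was −0.11 without that library. In all, 4 of 10 members, FOSB among them, were lower without overlap and 0 were higher. Of all genes tested 7.73% were lower and 8.31% higher without overlap, and nothing is read from the members' count because this comparison chose them.

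JUN stood at 55.1, 61 and 53 cpm with GFOGER and 68.6, 60 and 62.1 cpm with IKVAV. JUNB stood at 45.7, 47.2 and 46.9 cpm with GFOGER and 49.3, 53.8 and 36.9 cpm with IKVAV. JUND stood at 75.3, 84.6 and 73.5 cpm with GFOGER and 87, 66.6 and 108 cpm with IKVAV. The Jun genes thus overlapped between the mimics, with log2 fold changes of −0.17, −0.0016 and −0.16. EGR1, at 2.09, 2.74 and 3.36 cpm with GFOGER and 4.34, 3.17 and 2.67 cpm with IKVAV, overlapped too. FOSL1 lay between 0.356 and 1.36 cpm in T47D and overlapped between the mimics (log2 fold change 0.13, SE 0.43). The difference between the cell lines in their response to the mimics was not tested for any member.

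Libraries of T47D with IKVAV stood apart from each other in some heat shock genes as well. HSPA8, a constitutive chaperone and, over all 11 libraries together, the most abundant of 15 listed heat shock genes, had 3790, 4200 and 2060 cpm with IKVAV and 1790, 1710 and 1900 cpm with GFOGER. HSPA1A, an inducible chaperone whose reads cannot be separated with certainty from those of its near-identical copy HSPA1B, had 116, 114 and 54.2 cpm with IKVAV and 54, 59 and 54.3 cpm with GFOGER. FOS, HSPA8 and HSPA1A were therefore high in the same 2 libraries, IKVAV replicates 1 and 2, while FOSB was also above the GFOGER libraries in IKVAV replicate 3. IKVAV replicates 1 and 2 were above the other 4 T47D libraries for 5 of the 15 genes, HSPA8, HSPA1A, HSPA1B, DNAJB1 and DNAJA1, and not for the other 10, such as HSP90AA1 at 1810, 1980 and 2040 cpm with IKVAV and 2010, 1740 and 2160 cpm with GFOGER. These genes apart from HSPA8 were named after their values were seen. The share of all genes with that order was not counted, so nothing is read from the count. The summed level of the list was 10000, 10700 and 8620 cpm with IKVAV and 8260, 7670 and 8450 cpm with GFOGER, and none of its genes was at 0. Of the 15 genes 0 passed edgeR's test at an adjusted p below 0.05, 4 had an unadjusted p below 0.05, where 11.2% of all genes had, and DESeq2 called 0 of 14. In MDA-MB-231 4 of 14 genes of the list rose and 3 fell, near the 21.4% of all genes each way, and these became 2 and 3 without IKVAV replicate 1, 2 and 1 without IKVAV replicate 2, and 5 and 6 without GFOGER replicate 3. IKVAV replicates 1 and 2 were also the only T47D libraries whose RPKM values imply a total of 19898878 and 21774757 reads, against 5291494 to 5774966 in the others. Neither set of totals matches the reads counted, and the reason is not given in the sources used here. The higher set holds no GFOGER library, and the lower set holds IKVAV replicate 3 as its single IKVAV library. This difference and the mimic are therefore only partly confounded, but a single library gives no spread. Within the lower set FOSB was 23.7 cpm with IKVAV and 8.32 to 16.1 cpm with GFOGER. FOS was 23.8 cpm with IKVAV and 19 to 34.3 cpm with GFOGER there, and HSPA1A was 54.2 cpm and 54 to 59 cpm. The part of the heat shock genes was not tested.

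**Figure D4:**
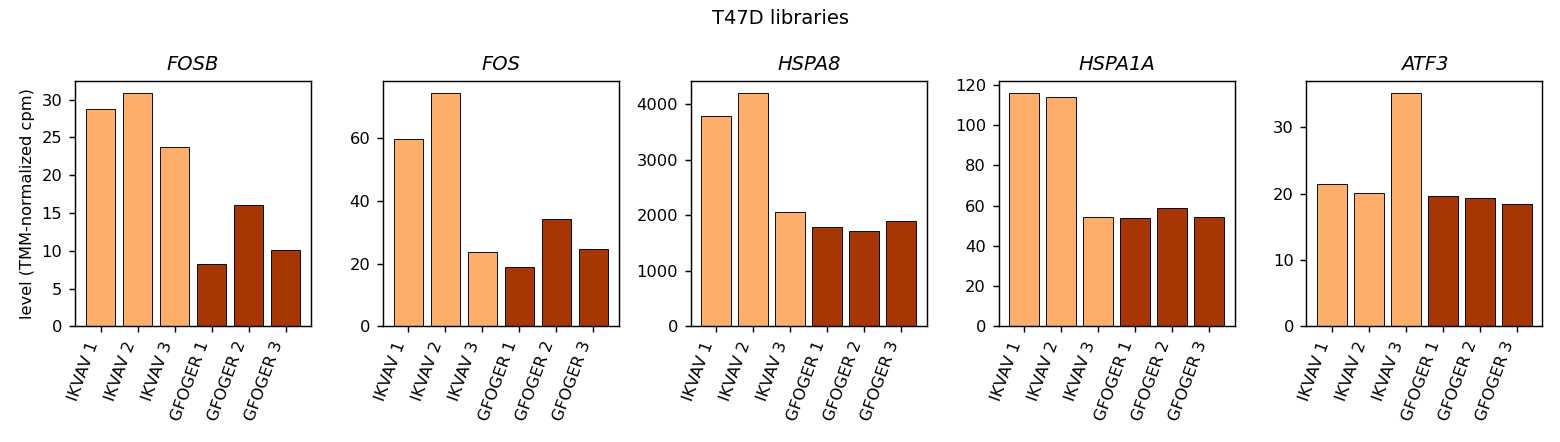
Level (vertical axis, TMM-normalized cpm, from 0) of FOSB, FOS, HSPA8, HSPA1A and ATF3 in the 6 T47D libraries, 1 bar a library. IKVAV replicates 1 and 2 stand high for FOS, HSPA8 and HSPA1A, IKVAV replicate 3 for ATF3, and all 3 IKVAV libraries for FOSB, from 23.7 cpm up.

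MDA-MB-231 and T47D were then compared within each mimic, in a fit of all 4 conditions. FOSB was left out of the tests because T47D libraries chose it, so 9 members were tested. All 9 were higher in MDA-MB-231 in both mimics at an adjusted p below 0.05, where 40.1% of 15320 genes were so in GFOGER and 38.3% in IKVAV. The same 9 were higher without overlap, as were 40.6% of all genes in GFOGER and 41.5% in IKVAV. With the 2-fold threshold 8 of 9 passed in GFOGER, where 23.7% of all genes did in that direction, and 7 of 9 in IKVAV, where 23.6% did.

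FOSL1 was 598-fold higher in MDA-MB-231 in GFOGER (log2 fold change 9.23, SE 0.196, adjusted p = 3.18e-19) and 322-fold higher in IKVAV (8.33, SE 0.204, adjusted p = 3.84e-18). EGR1 was 183-fold higher in GFOGER (7.52, SE 0.176, adjusted p = 1.22e-18) and 177-fold higher in IKVAV (7.47, SE 0.177, adjusted p = 2.49e-18). Next came FOSL2 at 12.1-fold and 10.5-fold, then IER2 at 5.03-fold and 4.93-fold. FOS was 3.7-fold and 3.25-fold higher, and FOSB, untested, 4.45-fold and 3.47-fold.

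In GFOGER the Jun genes and ATF3 differed less than these, whereas in IKVAV JUN and JUNB lay near FOS and FOSB. JUN was 3.05-fold higher in GFOGER and 3.36-fold higher in IKVAV, and JUNB 2.22-fold and 3.64-fold. JUND was 1.34-fold higher in GFOGER (log2 fold change 0.42, SE 0.131, adjusted p = 0.00693) and 1.38-fold in IKVAV (0.46, SE 0.145, adjusted p = 0.0069). ATF3 was 2.02-fold higher in GFOGER, at the edge of the threshold, and 1.44-fold in IKVAV (0.53, SE 0.183, adjusted p = 0.0137). The latter call was lost without MDA-MB-231 IKVAV replicate 2 (adjusted p = 0.0721), T47D IKVAV replicate 1 (adjusted p = 0.0551) or T47D IKVAV replicate 2 (adjusted p = 0.0749).

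In T47D the order per kilobase was led by JUND, at 41.6 ± 3.21 cpm per kilobase with GFOGER (SD, n = 3) and 46.6 ± 11.1 with IKVAV (SD, n = 3). JUNB followed at 25.7 in both mimics, and EGR1 at 0.871 and 1.08 and FOSL1 at 0.551 and 0.513 were lowest. In GFOGER the neighbours IER2 and FOS, and FOSL2 and FOSB, overlapped. In IKVAV it was JUNB with FOS, FOS with JUN, ATF3 with FOSB, and FOSB with FOSL2. FOS made up 59.4% ± 3.31 (SD, n = 3) of the Fos family in T47D with GFOGER and 60.5% ± 14.4 (SD, n = 3) with IKVAV.

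The genes around these factors were taken from lists of known AP-1 targets, other immediate early genes, MAP kinase feedback genes, other bZIP factors and upstream kinases and serum response factors, some of which share genes. Among known AP-1 targets in MDA-MB-231, 18 of 28 rose with GFOGER and 5 fell, with a median log2 fold change of 0.454, where 21.4% of all genes rose, 21.4% fell and the median was 0.00386. Without IKVAV replicate 1 it was 15 and 3, and without IKVAV replicate 2 it was 14 and 3. The collagenase MMP1 had a mean of 3780 cpm with GFOGER and 691 cpm with IKVAV (log2 fold change 2.44, SE 0.098, adjusted p = 2.27e-11). The stromelysin MMP3 had means of 35.3 and 2.14 cpm (4.04, SE 0.206, adjusted p = 4.06e-10), and PLAU, the urokinase gene, 565 and 170 cpm (1.72, SE 0.0978, adjusted p = 1.31e-09). The cytokine gene IL1A rose as well, from 20.6 to 55.5 cpm (1.42, SE 0.165, adjusted p = 4.49e-06). Of the 5 that fell, TIMP1, the metalloproteinase inhibitor gene, went from 1060 to 511 cpm (−1.06, SE 0.0782, adjusted p = 2.49e-08), and MMP13, another collagenase gene, from 2.11 to 0.765 cpm (−1.46, SE 0.402, adjusted p = 0.00775). Whether AP-1 acts on them here was not tested.

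Of 20 MAP kinase feedback and output genes in MDA-MB-231, 1 rose and 9 fell, where 21.4% of all genes moved each way. Their median log2 fold change was −0.249. With single libraries left out 0 to 1 rose and 6 to 11 fell, and the rise was lost without any one of GFOGER replicates 1 and 2 and IKVAV replicates 1 and 2. SPRY1, an inhibitor of receptor signalling to ERK, fell from 66.2 to 27.9 cpm (log2 fold change −1.26, SE 0.138, adjusted p = 2.39e-06). Of 33 other immediate early genes 8 rose and 6 fell, near the 21.4% of all genes each way, with a median of −0.0745. Without IKVAV replicate 1 it was 5 and 5. CYR61 and CTGF, matricellular genes also controlled by YAP, rose from 617 to 2000 cpm (log2 fold change 1.69, adjusted p = 1.74e-10) and from 142 to 371 cpm (1.38, adjusted p = 5.77e-09). IER5L fell from 42.6 to 10.5 cpm (−2.02, adjusted p = 4.71e-08), and NR4A2, an orphan nuclear receptor gene, from 32.9 to 10.1 cpm (−1.71, adjusted p = 6.91e-08). Of 22 other bZIP factors 2 rose and 6 fell, where 21.4% of all genes moved each way, with a median of 0.0241. The rises, which rested on both IKVAV libraries, were 1 without GFOGER replicate 1 and 4 without GFOGER replicate 3. Of 27 upstream genes 7 rose and 5 fell, again near the share of all genes, and 4 rose and 3 fell without IKVAV replicate 2.

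**Figure D5:**
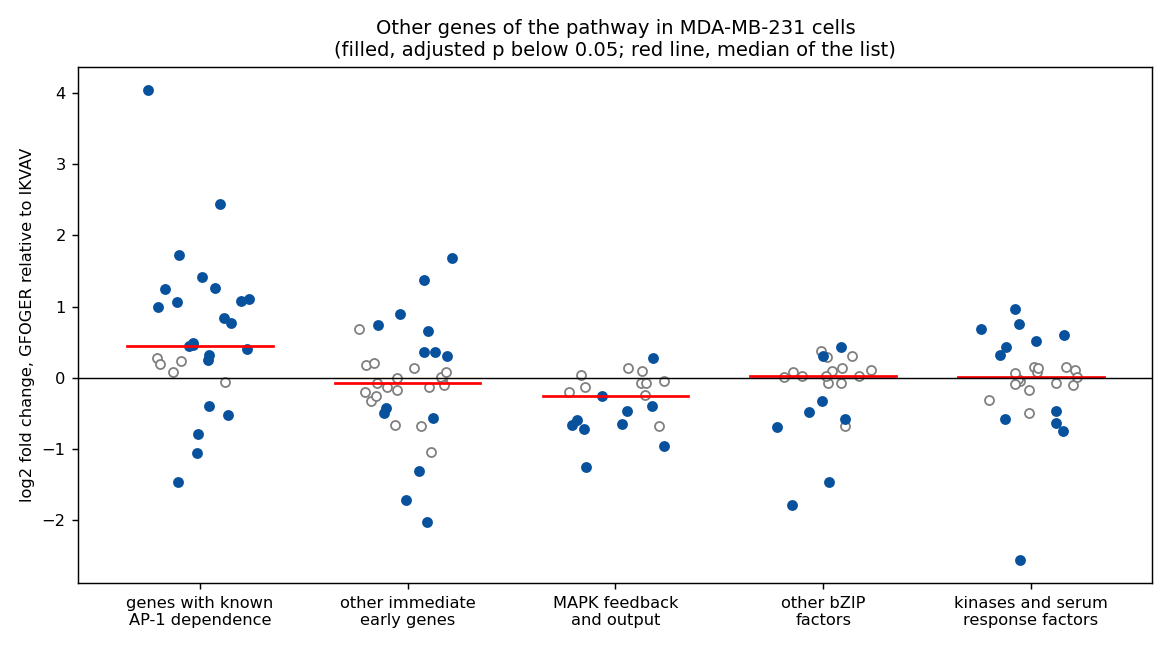
Log2 fold change of GFOGER relative to IKVAV (vertical axis) in MDA-MB-231 for each gene of the pathway lists (horizontal axis), filled where the adjusted p was below 0.05, with the median of each list as a red line. The median is 0.454 for AP-1 targets and −0.249 for MAP kinase feedback genes.

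In T47D edgeR called 0 genes of these 5 lists after adjustment. Before adjustment a p below 0.05 was found for 4 of 20 AP-1 targets, 7 of 18 MAP kinase feedback genes, 8 of 29 other immediate early genes, 4 of 22 bZIP factors and 5 of 27 upstream genes, where 11.2% of all genes tested were below it. DESeq2 called 1 of 17 AP-1 targets, GJA1, and 0 in the other lists. Between the lines 26 of 29 AP-1 targets passed both thresholds toward MDA-MB-231 in GFOGER and 24 in IKVAV, where 23.7% and 23.6% of all genes did, with median log2 fold changes of 5.71 and 5.32. Of 20 MAP kinase feedback genes 16 and 17 did so, with medians of 3.3 and 3.08.

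The genes most like FOSB and FOSL1 were sought by Pearson's correlation of log2 cpm, centred within each line, over the 11 libraries and 11147 genes. FOSB was most like NCOR1 (0.945), CRIPAK (0.944) and PKI55 (0.939), and FOSL1 was most like FYN (0.946), CHST7 (0.938) and MESDC2 (0.931). By Spearman's correlation the nearest were CRIPAK, NOTCH2NL and PKI55 (each 0.945) for FOSB, and DDX55 (0.955), KRT15 (0.955) and DPF1 (0.927) for FOSL1, so for FOSL1 the nearest 3 differed entirely between the measures. Among the members FOSB was closest to FOS (0.856), IER2 (0.794) and JUN (0.781), and its correlation with FOSL1 was −0.371. These points share libraries and the contrast between mimics, so the coefficients are a description.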

How the data were processed

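Poly-A RNA of the 4 conditions was sequenced by the authors, who, per the submitters' processing notes, used FastQC, Trim Galore 0.4.4, TopHat2 2.1.0, SAMtools 1.4, bedtools 2.17, HTSeq 0.6.1p1 and edgeR 3.16.5 with the build hg19. The strand option of counting and the annotation are not given in the sources used here. The deposited table holds raw read counts per gene, which were tested. It also holds the authors' RPKM values, used here only for the library total they imply, and gene lengths and positions. These totals, 5191201 to 5774966 reads in 5 libraries and 19898878 to 22840524 in the other 6, do not match the counted reads, and the reason is not given in the sources used here. The authors' table repeats some symbols, and of each symbol the entry with most reads was kept (23368 of 24656 entries).

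The analysis used R 4.3.3, edgeR 4.0.16, limma 3.58.1 and DESeq2 1.42.0. Low counts were removed by the default filterByExpr, libraries were TMM-normalized, and genes were tested by the quasi-likelihood method of edgeR, Benjamini-Hochberg adjusted over all genes of a fit, within each line for the mimics and over all 4 conditions for the lines. The thresholds, as in the study, were an adjusted p under 0.05 and a change of over 1 on the log2 scale. Fold changes are relative to all genes. The script was tested on simulated data. Same-numbered libraries were not treated as paired, so the replicate block is an alternative.

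The members and lists were chosen with earlier results of these data known. The text names all 10 members, the markers, HSPA8, the up to 4 genes of each list with the largest change in MDA-MB-231 that passed both thresholds (mean log2 cpm 2 or more), and the 3 genes most like FOSB and FOSL1. HSPA1A, HSPA1B, DNAJB1, DNAJA1, HSP90AA1, NOTCH2NL, DDX55, KRT15, DPF1, TIMP1, MMP13 and GJA1 were named after their values were seen.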

Additional observations from a re-analysis of the deposited data

How the results depend on the processing

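In MDA-MB-231 FOS, FOSB, FOSL1 and JUNB kept their direction and an adjusted p below 0.05 in 13 alternatives that test for any change, though not with the 2-fold threshold inside the test, with highest adjusted p of 0.0251, 0.0162, 0.000542 and 0.0187. The number of members past both thresholds, 1, was 6 with the adjusted p alone, 0 with upper-quartile normalization or the 2-fold threshold inside the test, 2 with the RPKM library total as a term, and 0 to 3 when single libraries were left out. The number with an adjusted p below 0.05, 6, was 4 to 9 when single libraries were left out. Genes past both thresholds in MDA-MB-231, 1349, were 6040 with the adjusted p alone, 403 with the threshold inside the test and 1139 to 1483 without single libraries. In T47D the 3 genes became 8 with DESeq2, 20 without a filter, 6 with the adjusted p alone, 0 with the threshold inside the test, 5 in a fit of all 4 conditions, 49 with the RPKM total as a term and 0 to 94 without single libraries, 94 being without IKVAV replicate 3. Between the lines 7182 genes in GFOGER and 7032 in IKVAV became 4213 and 4157 with at least 10 counts in every library, 12187 and 11837 with the adjusted p alone, and 7088 to 7128 and 6881 to 7117 without single libraries. Members past both thresholds were then 7 to 8 in GFOGER and 7 to 7 in IKVAV. The log2 fold change of ATF3 in MDA-MB-231 ranged from −0.081, without GFOGER replicate 2, to 0.17, without GFOGER replicate 3. The causes were not tested.

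Libraries that share a replicate number were not treated as paired. After centring on the mean of each condition, 15 same-number pairs had correlations between −0.499 and 0.109. Such centring makes the correlations offset each other, so they cannot settle whether the libraries were paired. With the replicate number as a block, 5 genes in T47D and 1445 in MDA-MB-231 passed both thresholds, and 9 members of MDA-MB-231 had an adjusted p below 0.05. The share of all genes at that adjusted p alone was not counted with the block or with single libraries left out. Nothing is therefore read from these counts of members. With the block the log2 fold change of FOSL1 in MDA-MB-231 was 0.88 and that of FOSB −1.01. As GFOGER replicate 3 has no partner among the MDA-MB-231 IKVAV libraries, the block there nearly repeats leaving it out. FOSL2 in MDA-MB-231 lost its call in the fit of all 4 conditions (adjusted p = 0.0931). The RPKM total was added as a term after the data had been seen. It leaves 1 library to stand for IKVAV, replicate 2 in MDA-MB-231 and replicate 3 in T47D, so it nearly repeats leaving out the others and is no separate evidence. Where 1 IKVAV library is left, it is assumed to vary like the GFOGER libraries. FOSL1 could not be fitted in the lines' comparison with at least 10 counts in every library. Of all member results under alternatives, 469 stayed the same, 13 weakened, 8 strengthened, 6 moved and 1 reversed. For tested results, staying the same means the same direction and the same side of an adjusted p of 0.05. For untested results it means a log2 fold change that shifted by less than the SD between replicates.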
